A study of Mus musculus with 4 samples.

Results

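The Hox genes of clusters A, B, C and D were described in embryonic mouse kidneys with and without a deletion of Hnf4a, a nuclear receptor of the proximal tubule, in the nephron lineage. The members were all genes whose symbol in the expression tables was Hox followed by the cluster letter and a number, taken as single names, with rows that join several names reported apart. In all, 39 Hox genes were named in the tables, and 23 of them had a row of their own in all 4 libraries, out of 22761 gene names found in all 4. Whole kidneys were collected at embryonic day E18.5, and poly(A)-selected RNA was sequenced from 2 control libraries, with the genotype Hnf4a c/+ ; Six2GFPcre, and 2 mutant libraries, with the genotype Hnf4a c/c ; Six2GFPcre. Both groups were of mixed strain and carried the Six2GFPcre transgene, which expresses Cre recombinase in nephron progenitors, so the controls, too, could lose their conditional Hnf4a allele in those cells. Ureteric bud, stroma and vessels arise outside that lineage and were part of every library. The labels do not say which animals, or how many, went into each library, so p-values measure only the spread between these libraries. The 2 libraries of each group differed in the sex-linked transcripts given below, so they were not repeats of the same RNA. How many animals that spread covers is unknown.

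Hox genes encode homeodomain transcription factors that stand in order along 4 chromosomal clusters. Genes at the same place in different clusters form a paralog group, and the low-numbered groups are used toward the head and the high-numbered groups toward the tail of the embryo. In the kidney, the group 11 genes Hoxa11, Hoxc11 and Hoxd11 are known for their redundant role in the metanephric mesenchyme, where they act with Pax2 and Eya1 on Six2 and Gdnf. Hoxa10 and Hoxd10 are known from the renal stroma, and Hoxb7 is known from the ureteric bud, where its promoter is widely used to drive transgenes.

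The group 11 paralogs are shown first because Hoxa11 and Hoxd11 mark these clusters in the kidney and because their coding sequences bear on how well short reads can be told apart. The homeobox, the 180 bases that encode the homeodomain, was taken from the GENCODE M21 transcripts of build GRCm38. Capitals mark the positions that are not the same in all 3 genes.
Hoxa11 homeobox: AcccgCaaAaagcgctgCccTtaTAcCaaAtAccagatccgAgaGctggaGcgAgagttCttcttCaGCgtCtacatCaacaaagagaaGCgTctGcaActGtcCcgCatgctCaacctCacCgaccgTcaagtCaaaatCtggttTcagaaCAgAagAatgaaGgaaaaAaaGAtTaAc
Hoxc11 homeobox: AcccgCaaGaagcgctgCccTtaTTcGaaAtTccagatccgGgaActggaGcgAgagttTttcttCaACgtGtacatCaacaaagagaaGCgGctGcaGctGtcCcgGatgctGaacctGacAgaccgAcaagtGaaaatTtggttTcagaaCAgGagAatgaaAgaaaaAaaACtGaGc
Hoxd11 homeobox: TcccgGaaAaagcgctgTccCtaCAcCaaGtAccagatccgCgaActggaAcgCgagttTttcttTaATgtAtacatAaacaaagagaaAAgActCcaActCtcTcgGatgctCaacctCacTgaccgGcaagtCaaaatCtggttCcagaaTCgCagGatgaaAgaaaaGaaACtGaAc
Of the 180 positions, 135 were identical in the 3 genes and 45 were not. Hoxa11 and Hoxc11 were identical at 86.7% of positions, Hoxa11 and Hoxd11 at 80.6%, and Hoxc11 and Hoxd11 at 79.4%. Over all 39 homeoboxes, 42 pairs within a paralog group had a median identity of 80.6%, and 699 pairs from different groups had a median of 60.6%. Within group 11, the longest run of identical bases was 20 for Hoxa11 and Hoxc11, 17 for Hoxa11 and Hoxd11, and 11 for Hoxc11 and Hoxd11. The longest run in any pair was 52, between Hoxa6 and Hoxb4, which are from different groups. The sources used here do not give how the alignment treated reads from such runs.

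The clusters also hold microRNA genes, whose mature sequences are given here in lower case with the seed, bases 2 to 8, in capitals (RefSeq, build GRCm38.p6). They show which cluster microRNAs share a seed.
miR-10a-5p, cluster B: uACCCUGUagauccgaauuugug
miR-10b-5p, cluster D: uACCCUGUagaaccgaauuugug
miR-196a-5p, clusters B and C: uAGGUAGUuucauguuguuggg
miR-196b-5p, cluster A: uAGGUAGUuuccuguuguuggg
The miR-10 pair shared 1 seed and the miR-196 pair shared another. Poly(A)-selected RNA of this kind does not measure mature microRNAs, and the rows named Mir10a, Mir10b, Mir196a-2 and Mir615 were listed at 0 FPKM in all 4 libraries. FPKM counts sequenced fragments relative to how long a transcript is and how many fragments its library mapped. Mir196b had 5.61 FPKM in mutant replicate 2 and 0 in the remaining libraries. It was not tested because its status in control replicate 2 was not OK, and it also reached 1 FPKM in only 1 library.

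The 4 tables were alike at the level of the series. The libraries' median ratios over genes with at least 1 FPKM in all 4 libraries ran from 0.979 to 1.01. The read depth behind the FPKM values is unknown, so no counting interval of its own is given here. Hnf4a itself was at 89.3 and 84.6 FPKM in the controls and at 87.1 and 78.5 in the mutants, and this row does not check the labels because no label says which part of the gene is excised. The summed FPKM of 5 proximal tubule markers was 235 and 195 in the controls and 79.6 and 73.7 in the mutants. Xist was at 80.9 and 74.0 FPKM in the replicate 2 libraries and below 1 in the replicate 1 libraries, with Ddx3y the other way round, so each group held 1 library of each kind.

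Assembly in each library decided which Hox genes could be read alone. A row of their own in some libraries was found for 6 Hox genes, and 10 never had one: Hoxa3, Hoxa5, Hoxa6, Hoxa7, Hoxb3, Hoxb6, Hoxd3, Hoxd4, Hoxd10 and Hoxd11. Hoxd11, a marker of the clusters in kidney, was thus measured only together with Hoxd10. To keep every gene in view, names that shared a row in any library were merged and summed in all libraries, which gave 30 units: 23 single genes and 7 joined groups. This merging was chosen after seeing the data. Values below are FPKM, which are per length and so can be compared between genes.

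The highest Hox levels lay away from the ends of each cluster, and the genes of paralog groups 1 and 13 that are reported were low. Of the 23 single genes, 16 reached at least 1 FPKM in at least 2 libraries and were tested. The other 7 did not reach that filter, and 2 of them, Hoxb13 and Hoxc12, were listed at 0 throughout. All 4 genes of paralog group 13, of which Hoxa13 and Hoxd13 act in the hindgut, genital tubercle and distal limb, were among these 7. By paralog group, mean levels over the 4 libraries were 25.02 to 55.2 FPKM for the 3 group 9 genes, 43.4 and 76.0 for Hoxc10 and Hoxa10, and 9.44 and 34.9 for Hoxc11 and Hoxa11.

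**Figure D1:**
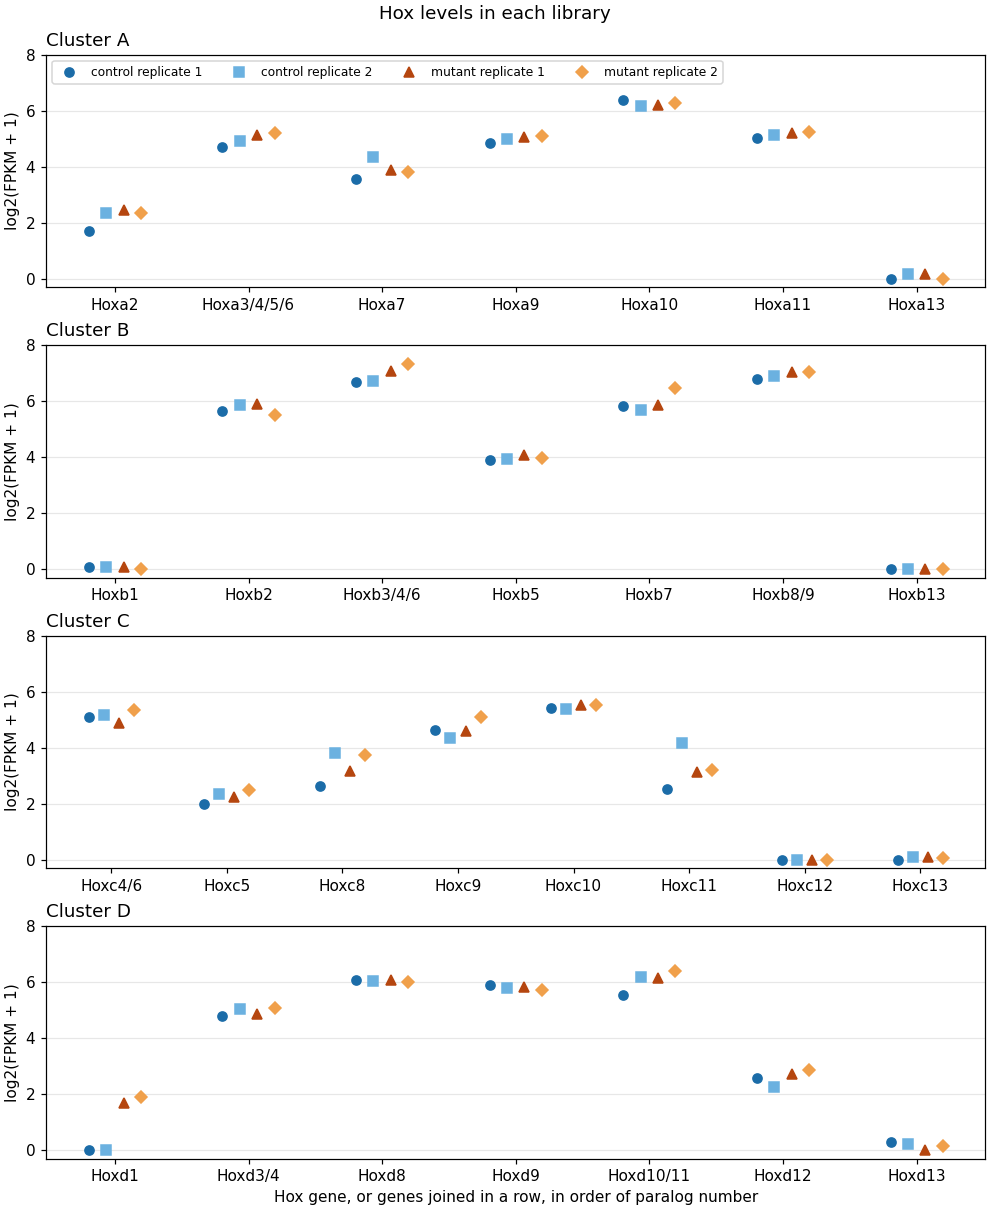
Level of 29 Hox genes or joined units on a log2(FPKM + 1) scale (vertical axis), in paralog order along each cluster (horizontal axis), with 1 point per library. Levels are low at groups 1 and 13 and higher between them, and the 4 libraries lie farthest apart at Hoxd1, Hoxc11 and Hoxc8.

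Among the tested single genes the order of levels was led by Hoxa10, followed by Hoxd8, Hoxb7, Hoxd9, Hoxb2, Hoxc10, Hoxa11, Hoxa9, Hoxc9 and Hoxb5. Of the 15 neighbouring pairs in the full order, 4 were separate in that all libraries of the higher gene lay above all libraries of the lower one: Hoxa10 above Hoxd8, Hoxc10 above Hoxa11, Hoxc9 above Hoxb5, and Hoxb5 above Hoxc8. The other 11 pairs overlapped. Among the joined units, Hoxb3/Hoxb4/Hoxb6 had a mean of 126 FPKM and Hoxb8/Hoxb9, which is joined with Gm53 and Mir196a-1, had a mean of 122, each being a sum over its genes.

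The pattern of levels was nearly the same in both genotypes. Across the 30 units, mutant and control means had a Pearson correlation of 0.988 on the log2 scale and a Spearman correlation of 0.977, given as a description because the units share libraries. No Hox gene passed the test for a difference between mutant and control (limma, Benjamini-Hochberg adjusted p under 0.05, 0 of 16), where 0.158% of all 13287 genes tested did. At an unadjusted p under 0.05, 1 of the 16 passed, Hoxd1, which was higher in the mutants and entered the test only through them. Of all genes tested 7.24% passed in either direction and 2.67% upward. With 2 libraries in a group, a change that misses the threshold is not shown to be absent. RNA from whole kidneys cannot tell fewer cells of a type from less RNA per cell.

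The direction of the changes lay more often upward. The log2 change was above 0 for 11 of the 16 genes and below 0 for 5, where 55.3% of all genes tested were above 0. In 8 of the 16 both mutant libraries lay above both controls, against 22.7% of all genes tested, and in 0 of the 16 both lay below, against 17.1%. Non-overlap in either direction was thus 8 of 16, against 39.8%. The median log2 change was 0.15, and that of all genes was 0.02. Without Hoxd1, which entered the test only through the mutants, the median was 0.13 and 7 of 15 were above without overlap. Over the 23 tested units, 16 were above 0 and 11 did not overlap and were higher (22.7% of all genes), with 0 lower, and the median was 0.16. Without Hoxd1, 15 of 22 units were above 0, 10 were higher without overlap and 0 lower, and the median was 0.15. Within the replicate 1 libraries 18 of the 23 units were higher in the mutant, and within the replicate 2 libraries 17 were, against 55.1% and 53.2% of all genes. Both of these counts include Hoxd1.

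**Figure D2:**
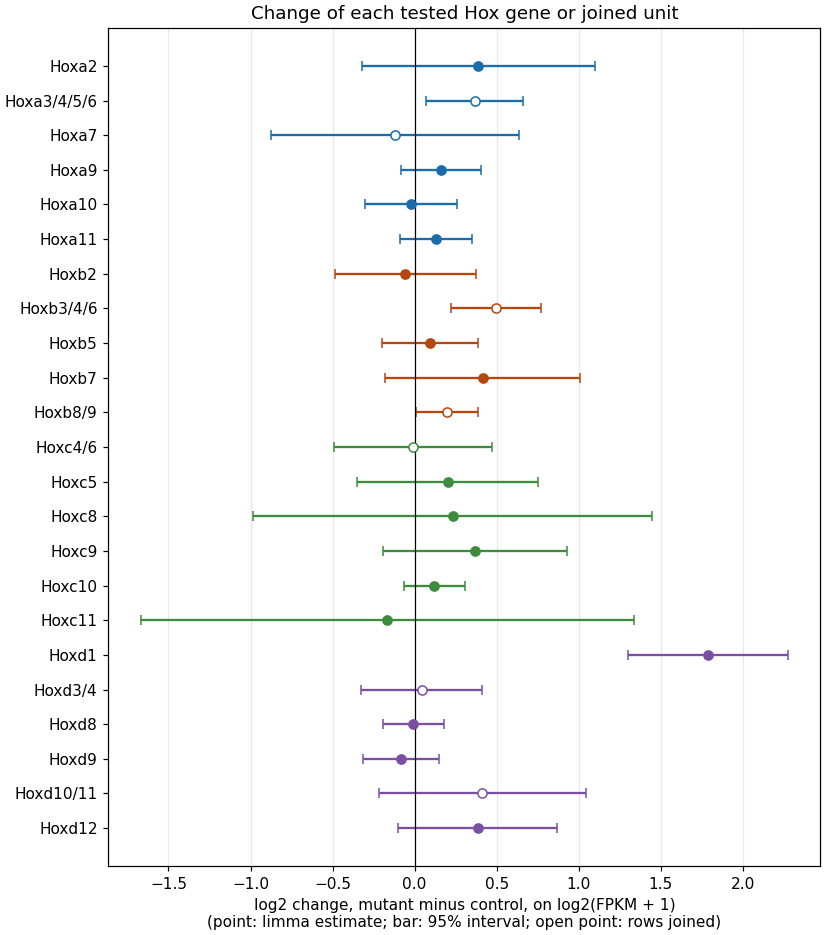
Log2 change, mutant minus control, on the log2(FPKM + 1) scale (horizontal axis) for the 23 tested Hox genes and joined units, ordered by cluster (vertical axis), with limma's 95% interval as the bar and open points for joined rows. Most estimates lie between -0.17 and 0.50, and Hoxd1, at 1.79, stands alone on the right.

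Hoxd1, the anterior gene at the end of cluster D, was the single gene whose groups were far apart. It was listed at 0 FPKM in both controls, at 2.22 in mutant replicate 1 and at 2.70 in mutant replicate 2. Both mutant libraries thus held a low value and both controls 0, at the same locus in all 4 libraries (mm9, chr2:74601036-74603199). The deposited intervals were 1.39 to 2.998 and 1.77 to 3.60 FPKM in the mutants, and their upper bounds in the controls were 0 and 0.161. On the log2(FPKM + 1) scale the change was 1.79 (SE 0.18, n = 2 against 2), with a limma p of 0.000369 and an adjusted p of 0.092. Hoxd1 entered the test only through the mutants, and its controls, both at 0, add no spread. This SE and p therefore cannot be read like those of genes measured in both groups. No fold is given against a group listed at 0, and the size of the change depended on the constant added: it was 2.56 with 0.5 and 4.67 with 0.1, with adjusted p of 0.083 and 0.087. Among all genes tested, 14 were listed at 0 in both controls with at least 1 FPKM in both mutants, and 16 showed the reverse. Without either mutant library Hoxd1 fell below the filter and had no value.

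The bases before the Hoxd1 start are printed because Hoxd1 had the largest log2 change among the tested Hox genes, with those of Hoxa11 for comparison. Each is the 250 bases before the RefSeq start in build GRCm38.p6, on the gene's strand, 5′ to 3′, with CG dinucleotides in capitals.
Hoxd1, chr2:74762730-74762979, plus strand: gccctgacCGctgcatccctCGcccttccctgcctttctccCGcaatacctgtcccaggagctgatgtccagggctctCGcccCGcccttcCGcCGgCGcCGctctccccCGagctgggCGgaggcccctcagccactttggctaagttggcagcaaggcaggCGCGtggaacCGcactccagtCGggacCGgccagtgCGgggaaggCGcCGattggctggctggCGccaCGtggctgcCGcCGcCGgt
Hoxa11, chr6:52245811-52246060, minus strand: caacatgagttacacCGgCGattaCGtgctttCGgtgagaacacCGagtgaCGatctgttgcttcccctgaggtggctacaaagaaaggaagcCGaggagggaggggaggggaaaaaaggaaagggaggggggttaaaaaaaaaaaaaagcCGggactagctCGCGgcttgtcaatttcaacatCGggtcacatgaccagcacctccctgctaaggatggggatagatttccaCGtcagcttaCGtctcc
The Hoxd1 window held 24 CG and the Hoxa11 window held 13. The RefSeq table matched 22 of the 39 Hox genes, with 24 windows, whose median was 12.5 CG against 6 in all 32851 windows. The HNF4-type motif CAAAGTCCA, searched on both strands, was in 0 of the 24 windows and in 0.384% of all windows, where no match says only that these letters are absent there. The HOX-PBX motif TGATTNAT was in 2 of the 24, or 8.33%, against 2.82% of all windows, and the posterior HOX motif TTTATNG was in 2 of the 24 against 9.81%.

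Group 11, the group most closely tied to kidney formation, gave no call, and its members differed in how closely the libraries lay together. Hoxa11 was at 32.1 and 34.5 FPKM in the controls and at 36.0 and 37.1 in the mutants (mm9, chr6:52192103-52196051 in control replicate 1). Both mutants lay just above both controls, with a log2 change of 0.13 (SE 0.08, n = 2 against 2) and a limma adjusted p of 0.76, and 0.08 without control replicate 1. Hoxd11 and Hoxd10, which share a row, were together at 45.6 and 71.0 FPKM in the controls and at 69.9 and 82.7 in the mutants. Control replicate 1 was the low library, the groups overlapped, and the log2 change of 0.41 (SE 0.24) fell to 0.10 without that library. Hoxc11 was at 4.79 and 16.8 FPKM in the controls and at 7.88 and 8.24 in the mutants. Its largest spread was thus within the controls, which enclosed both mutants, and its log2 change was -0.17 (SE 0.56).

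Cluster A held the highest single gene. Hoxa10, a paralog known from stromal patterning, was at 82.9 and 70.5 FPKM in the controls and at 73.1 and 77.6 in the mutants. The mutants lay between the controls, and the log2 change was -0.02 (SE 0.10). Hoxa9 was at 28.1 and 31.2 in the controls and at 32.7 and 33.7 in the mutants, higher in both mutants by 0.16 on the log2 scale (SE 0.09, limma adjusted p = 0.76) and by 0.09 without control replicate 1. Hoxa2, a hindbrain and branchial arch gene among the 3 largest positive changes of the single-name genes, was low at 2.25 and 4.09 FPKM in the controls and 4.52 and 4.13 in the mutants. The groups of Hoxa2 only just separated, and its log2 change of 0.39 was 0.06 without control replicate 1. The joined unit of Hoxa3, Hoxa4, Hoxa5 and Hoxa6 was at 25.01 and 29.5 in the controls and at 34.4 and 36.2 in the mutants, a log2 change of 0.37 (SE 0.11, unadjusted p = 0.026, limma adjusted p = 0.55). Hoxa7, joined with Mira, ranged from 10.9 to 19.4 FPKM with both extremes among the controls.

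Cluster B held the joined unit with the largest log2 change. Hoxb3, Hoxb4 and Hoxb6 together were at 102 and 106 FPKM in the controls and at 136 and 160 in the mutants. Both mutants were clearly above both controls, the mutant mean was 142% of the control mean, and the log2 change was 0.50 (SE 0.10, unadjusted p = 0.0064, limma adjusted p = 0.31). Hoxb8 and Hoxb9, with Gm53 and Mir196a-1, were at 110 and 118 in the controls and at 130 and 131 in the mutants, a log2 change of 0.20 (SE 0.07, unadjusted p = 0.046, limma adjusted p = 0.67). These units and that of Hoxa3 to Hoxa6 are the 3 besides Hoxd1 with an unadjusted p under 0.05, which makes 4 of 23 units, or 3 of 22 without Hoxd1, which entered only through the mutants, against 7.26% of all genes.

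The single genes of cluster B were less even. Hoxb7, the ureteric bud gene, was at 55.7 and 51.0 FPKM in the controls and at 57.4 and 88.7 in the mutants. Only mutant replicate 2 was high, and there the assembled locus began at position 96147959 of chromosome 11 (mm9), where the other libraries began between 96146858 and 96146913. Whether the shorter locus bears on the value was not tested. The log2 change of Hoxb7 was 0.41 (SE 0.22, limma adjusted p = 0.76), and 0.11 without mutant replicate 2. Hoxb2 was at 49.2 and 58.1 in the controls and at 58.4 and 45.1 in the mutants, which enclosed the controls. Hoxb5, whose locus lies inside that of the joined row of Hoxb3 and Hoxb6, was at 14.1 and 14.5 in the controls and at 16.1 and 14.7 in the mutants.

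Cluster C held the 2 tested genes with the widest spread between libraries of a group, Hoxc11 and Hoxc8. Hoxc10 was even within each group, at 42.0 and 41.2 FPKM in the controls and at 45.3 and 45.2 in the mutants, a log2 change of 0.12 (SE 0.07, limma adjusted p = 0.76). Hoxc9 was at 23.8 and 19.3 in the controls and at 23.5 and 33.5 in the mutants, with mutant replicate 2 high and the groups overlapping, and its log2 change of 0.37 was 0.12 without that library. Hoxc8 was at 5.20 and 12.9 in the controls and at 7.94 and 12.3 in the mutants, so the replicate 2 libraries of both groups were the higher ones. Hoxc4 and Hoxc6, joined, ranged from 28.4 to 40.0 FPKM with both extremes among the mutants. Hoxc5, whose locus lies within theirs where they are joined, was between 2.96 and 4.59 and its groups overlapped.

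Cluster D held well-expressed genes that lay nearly level between the genotypes. Hoxd8 was at 66.9 and 64.2 FPKM in the controls and at 66.3 and 64.1 in the mutants, so the values interleaved and the log2 change was -0.01 (95% interval -0.19 to 0.18). Hoxd9 was at 59.3 and 54.5 in the controls and at 55.8 and 51.5 in the mutants, overlapping, with a log2 change of -0.08 (SE 0.09). Hoxd12 was at 4.95 and 3.79 in the controls and at 5.62 and 6.32 in the mutants. Both mutants of Hoxd12 were higher, by 0.38 on the log2 scale (SE 0.18), with a limma adjusted p of 0.76, and by 0.23 without control replicate 2. Hoxd3 and Hoxd4, joined, ranged from 26.8 to 32.8 FPKM and overlapped.

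Summed over all Hox rows, cluster B carried the most signal and cluster C the least. Cluster B summed to 331 and 348 FPKM in the controls and to 398 and 439 in the mutants, a ratio of means of 1.23. Cluster A summed to 182 and 190 in the controls and to 195 and 202 in the mutants, a ratio of 1.07. Cluster D summed to 204 and 226 in the controls and to 228 and 240 in the mutants, a ratio of 1.09. Both mutants were above both controls in clusters A, B and D, in D only narrowly. Cluster C summed to 112 and 129 in the controls and to 117 and 144 in the mutants, a ratio of 1.08 that became 0.969 without mutant replicate 2. These sums are descriptions with no test.

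**Figure D3:**
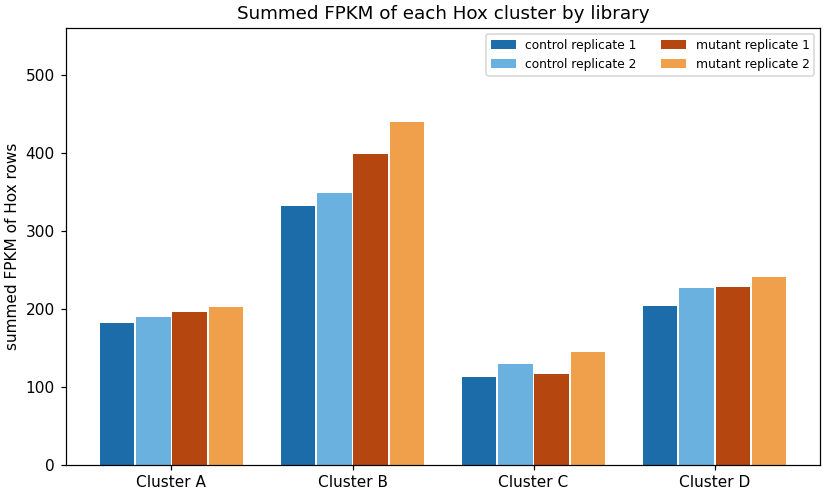
Summed FPKM of all Hox rows of each cluster (vertical axis) in the 4 libraries (bars, 1 per library). Cluster B is the highest in every library, from 331 to 439 FPKM, and cluster C, from 112 to 144, the lowest.

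Other named transcripts inside the clusters were mostly silent. Hoxa11os, the transcript antisense to Hoxa11, was at 32.7 and 30.1 FPKM in the controls and at 36.8 and 44.4 in the mutants. Both mutants were higher, by 0.36 on the log2 scale (SE 0.12, limma adjusted p = 0.64), and its locus overlaps that of Hoxa11. The sources used here do not give strand use in the counting, so reads of Hoxa11 and Hoxa11os cannot be told apart. Hotair, a long noncoding RNA of cluster C, stayed below 1 FPKM, at 0.0673 and 0.133 in the controls and 0.270 and 0.234 in the mutants. Hoxd3os1, 2700086A05Rik, Gm11538 and 6720416L17Rik were listed at 0 throughout. LOC102634401 in cluster D was at 1.38 and 1.17 in the controls and at 1.19 and 0 in the mutants.

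The 24 expressed genes flanking the clusters, 3 on each side, gave a local comparison. None passed the adjusted threshold by limma, and 1 of 24 had an unadjusted p under 0.05, against 7.24% of all genes tested. This was Cbx1, beside cluster B, which encodes the heterochromatin protein HP1 beta and was at 88.4 and 91.9 FPKM in the controls and 130 and 110 in the mutants. Both mutants of Cbx1 were higher, with a log2 change of 0.41 (SE 0.10, adjusted p = 0.45). The median log2 change of the flanking genes was 0.04, and without overlap 5 of 24 were higher, against 22.7% of all genes, and 2 lower, against 17.1%.

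Partners and upstream regulators of Hox proteins were read from the same fit, in which 0.158% of all genes tested passed and 7.24% had an unadjusted p under 0.05. Of the TALE homeodomain cofactors, which bind DNA together with Hox proteins, 8 were tested and 0 passed (limma, with 0 at an unadjusted p under 0.05), with a median log2 change of 0.06. Meis2 was at 35.2 and 48.3 FPKM in the controls and at 38.1 and 67.2 in the mutants, which overlapped. Of the metanephric mesenchyme genes, 9 were tested, 0 passed and 0 had an unadjusted p under 0.05, with a median of -0.03. Six2, the progenitor factor downstream of group 11, was at 67.0 and 49.9 in the controls and at 58.4 and 55.9 in the mutants. Wt1 likewise overlapped, at 58.6 and 69.2 against 64.8 and 55.2. Eya1, a partner of the group 11 proteins, was at 15.4 and 12.5 in the controls and at 19.3 and 15.8 in the mutants, separated only narrowly.

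The chromatin regulators that hold Hox clusters silent or active gave no call by limma. Of all genes tested, 0.158% passed and 7.24% had an unadjusted p under 0.05. Of 15 Polycomb genes, 0 passed and 0 had an unadjusted p under 0.05, with a median of 0.09. Phc2 was at 72.7 and 71.6 FPKM in the controls and 69.9 and 69.8 in the mutants. Ezh2, the H3K27 methyltransferase, was at 33.9 and 39.5 in the controls and 41.3 and 42.3 in the mutants. The differences of both were small beside Cbx7, a reader of that mark, which was at 3.41 and 2.29 in the controls and at 13.5 and 4.41 in the mutants. Mutant replicate 1 carried most of the Cbx7 difference (log2 change 1.22, SE 0.52, adjusted p = 0.75), which was 0.51 without it. Of 10 Trithorax and H3K27 demethylase genes, 0 passed and 0 had an unadjusted p under 0.05, with a median of -0.10. Dpy30 overlapped, at 73.9 and 88.4 against 85.2 and 83.6, whereas Men1 and Kdm6b were lower in both mutants. Kdm6b, an H3K27 demethylase, was at 37.0 and 28.1 in the controls and at 27.1 and 24.5 in the mutants (log2 change -0.31, SE 0.16, and -0.12 without control replicate 1).

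Retinoic acid, a known inducer of anterior Hox genes, was followed through 13 tested pathway genes, of which 0 passed by limma (0.158% of all genes tested) and 2 had an unadjusted p under 0.05 (7.24%). Aldh1a2, the main retinoic acid synthase of the embryonic kidney, was at 106 and 115 FPKM in the controls and at 116 and 113 in the mutants. Its groups overlapped. The 2 genes with an unadjusted p under 0.05, named after their values were seen, were Aldh1a1 and Rxrb. Aldh1a1, another retinaldehyde dehydrogenase, was at 7.17 and 6.66 in the controls and at 11.6 and 11.6 in the mutants (adjusted p = 0.25). Rxrb, a retinoid X receptor, was at 40.7 and 44.0 in the controls and at 33.8 and 33.0 in the mutants (adjusted p = 0.42). None of the 9 Cdx, ParaHox and Evx genes reached the filter.

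**Figure D4:**
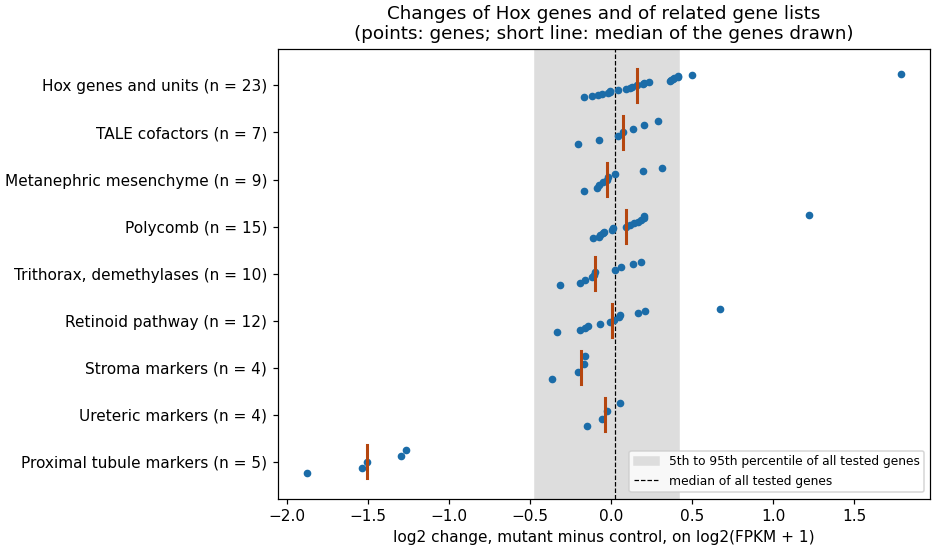
Log2 change, mutant minus control, on the log2(FPKM + 1) scale (horizontal axis) of tested genes in the Hox set, the cofactor and regulator lists and 3 marker lists (rows), with the median of the genes drawn as a short line and the 5th to 95th percentile of all tested genes in grey. The Hox median is 0.16, or 0.15 without Hoxd1, which entered the test only through the mutants. The proximal tubule median is -1.51. Hoxd1, Hoxb3/Hoxb4/Hoxb6, Cbx7 and Aldh1a1 fall outside the grey range among the Hox and regulator lists.

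Markers of the cell types that carry Hox transcripts were read beside these results. The summed FPKM of 4 stroma markers was 466 and 409 in the controls and 395 and 356 in the mutants, that of 4 nephron progenitor markers was 163 and 127 against 152 and 147, and that of 4 ureteric and collecting duct markers was 258 and 220 against 227 and 213. The stroma sum was lower in both mutants, and the progenitor sums overlapped. Of the 4 stroma markers, 2 were lower without overlap, against 17.1% of all genes tested, and 2 overlapped. By limma 0 of the 4 passed, against 0.158%, and 0 had an unadjusted p under 0.05, against 7.24%. Of the 5 proximal tubule markers, 1 passed by limma, against 0.158% of all genes tested, and 5 were lower in both mutants, against 17.1%. The summed adrenal markers were at most 1.33 FPKM, with Cyp11b1 at 0, and the summed skeletal muscle markers at most 3.39, with Myod1 at 0. The summed neuron markers were 5.19 and 6.40 in the controls and 6.45 and 8.78 in the mutants. The summed erythroid markers, 3 of 5 with a value, were 20.3 and 26.8 in the controls and 31.8 and 35.1 in the mutants, higher in both. Among them Alas2, a heme synthesis enzyme, had a log2 change of 0.53 (limma adjusted p = 0.37). The summed urothelium markers were 92.0 and 76.4 in the controls and 134 and 84.6 in the mutants and overlapped. The podocyte, endothelium, macrophage and liver sums overlapped as well. Within the liver sum, Alb was at 0.295 and 1.09 FPKM in the controls and at 1.11 and 21.1 in the mutants, so only mutant replicate 2 was high. Ttr was lower in both mutants and Afp overlapped. The part of these cell types in the Hox values was not tested.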

How the data were processed

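Poly(A) RNA of 4 whole-kidney libraries was read from gene tables deposited by the authors, whose values are FPKM (per the file headers), 1 table per library. Per the submitters' processing notes, TopHat2 2.0.11, Bowtie 1.0.0, SAMtools 0.1.19, Cufflinks 2.1.1 and build mm9 were used. Not given in the sources used here are the tools' roles and options, the annotation and the strand setting. Each table numbers its genes with a separate prefix, and locus extents and joined names differ between tables. Coordinates in mm9 are as those tables list them.

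FPKM of rows with the same name was summed. Of 22761 names in all tables, 99 with a status other than OK were dropped, and 13287 with at least 1 FPKM in at least 2 libraries were fitted with limma 3.58.1 (R 4.3.3) on log2(FPKM + 1), group only, with a trended prior. P-values are two-sided and were adjusted by Benjamini-Hochberg over all genes tested, with a threshold of 0.05. The fit was tested on simulated data. Named in full are Hoxa11, Hoxd11, the 3 highest Hox genes of each cluster, the 3 largest changes each way, and from each other list genes past the threshold or else the 2 highest and the most changed. Hox members and lists were chosen with earlier results of these data known. Alternatives covered the constant, filter, scaling, row handling, prior, replicate block and leaving out each library. Promoter and microRNA sequences are from RefSeq (GRCm38.p6) and homeoboxes from GENCODE M21. No coordinates were moved between builds. Count tests were not run because the tables hold no counts. A few members of the lists are not reported here by name.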

Additional observations from a re-analysis of the deposited data

Results flagged for a closer look

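Within clusters A and D, the summed FPKM of rows with no gene name, which no comparison above uses, was above both controls in both mutants. In cluster A these rows summed to 29.5 and 39.5 FPKM in the controls and to 198 and 348 in the mutants, a mutant mean of 273. Most of this lay in single short rows inside the Hoxa10 locus, 189 bases long at 103 FPKM in mutant replicate 1 and 143 bases long at 278 FPKM in mutant replicate 2. The deposited upper bounds of these rows were 21.6 and 23.8 FPKM, below the values themselves. In cluster D the unnamed rows summed to 71.7 and 67.8 in the controls and to 80.9 and 102 in the mutants, a mutant mean of 91.6. There a row 217 bases long, at 38.4 FPKM with an upper bound of 12.5, was part of mutant replicate 2. In clusters B and C the groups overlapped. These differences were not tested.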

How the results depend on the processing

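No Hox gene passed the adjusted threshold under any of the alternatives run, in any of 222 values of single Hox genes. Over all genes, limma called 21. It called 10 with no filter and 11 without the trended prior. More were called with a constant of 0.1 (28), with scaling by the median ratio (27) and with the highest row per name (26). When 1 library is left out, the lone library of a group is assumed to vary like the others. The number of Hox genes higher in both mutants was 8 of 16 tested, or 7 of 15 without Hoxd1, against 22.7% of all genes tested. With Hoxd1 included, it was 13 of 32 when each joined row was added to every gene it names, which counts such rows more than once. Under that setting the cluster B ratio was 1.13 in place of 1.23. The median Hox change was 0.15 and ran from 0.08 to 0.23 when 1 library was left out. With the replicate number as a block, 0 Hox genes passed, the median Hox change was 0.15 and 6 genes passed overall. Deviations of same-numbered libraries correlated at 0.146 over 13287 genes, with 2 pairs. The labels do not say that a number marks a litter or day. In both groups the number coincided with sex-linked transcripts, high Ddx3y in replicate 1 and high Xist in replicate 2. The block thus also stood for that difference, and leaving out 1 library left its group with 1 kind only. The unknown depth limits genes near 0, Hoxd1 among them. When 1 library was left out, the sign of the log2 change turned for 13 genes or units, all short of the threshold before and after. The lowest and highest values were -0.14 and 0.094 for Hoxa10, -0.24 and 0.13 for Hoxb2, -0.35 and 0.81 for Hoxc8, -0.98 and 0.65 for Hoxc11, -0.038 and 0.022 for Hoxd8, -0.51 and 0.27 for Hoxa7 with Mira, -0.25 and 0.23 for Hoxc4/Hoxc6, and -0.088 and 0.17 for Hoxd3/Hoxd4. For other genes they were -0.11 and 0.69 for Meis2, -0.21 and 0.029 for Wt1, -0.23 and 0.19 for Six2, -0.066 and 0.19 for Dpy30, and -0.0045 and 0.11 for Aldh1a2. Hoxd8 was also at 0.0050 under quantile normalization. The cause was not tested.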
